A study of Homo sapiens with 2 samples.

Results

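LIN28A, LIN28B and L1TD1 are 3 genes for RNA-binding proteins of stem cells, and the peaks described here are those that the authors' DDX18 iCLIP list placed in these genes by Entrez identifier. The list named 6695 genes with a peak, and all 3 genes were among them, with 21 of its 16095 distinct peak positions. iCLIP crosslinks a protein to the RNA it touches with ultraviolet light, recovers the protein and maps the attached RNA fragments. Here the protein was 3XFlag-DDX18, a tagged form of the nucleolar DEAD-box helicase DDX18, recovered with an anti-Flag antibody from H9, a long-established line of human embryonic stem cells, grown on irradiated mouse feeder cells under normal culture. The single group had 2 samples, replicates 1 and 2, whose peaks were deposited as 1 list. No value per replicate and no library without the tag was analysed here, so every value below is a description without an error between samples and without a test. The labels do not say what drives the tagged gene, whether 1 clone was used, or whether the samples came from separate cultures.

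LIN28A and LIN28B each carry a cold-shock domain and zinc knuckles. They bind the precursors of the let-7 microRNAs and hold back their maturation, and they also bind many mRNAs. Mature let-7 in turn represses the LIN28 mRNAs through sites in their 3' untranslated regions (UTRs), so the proteins and the microRNA restrain each other. L1TD1 is an RNA-binding protein derived from the first open reading frame of a LINE-1 retrotransposon, and it is abundant in pluripotent cells together with LIN28A.

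The let-7 sequences are shown because their seed is the part that pairs with the 3' UTRs of LIN28A and LIN28B, where most of the peaks below lay. All 8 distinct 5p mature forms in the RefSeq table share this seed. Capitals mark it, bases 2 to 8 counted from the 5' end, and coordinates are those of GRCh38.p14, on the plus strand for the first 3 and the minus strand for the fourth (chr9:94175962-94175983, chr22:46113691-46113712, chr9:94176353-94176374 and chr3:52268336-52268357).
hsa-let-7a-5p: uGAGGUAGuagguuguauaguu
hsa-let-7b-5p: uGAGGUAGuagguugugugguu
hsa-let-7f-5p: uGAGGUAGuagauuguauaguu
hsa-let-7g-5p: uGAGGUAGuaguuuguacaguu

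None of the 11 MIRLET7 genes of the RefSeq table was named for a peak. The share of all microRNA genes with a peak was not computed here, so this count was not read as a result about let-7. A let-7 gene had the nearest start site for 16 entries, but all were called in other genes and lay at least 5593 nt from it. The bases under the peaks were not analysed here, so peaks were not set against let-7 sites.

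LIN28A on chromosome 1 had the most peaks of the 3 genes, 16, with a summed height of 316. In L1TD1, also on chromosome 1, 3 peaks added up to a height of 56. In LIN28B on chromosome 6, 2 peaks added up to 14. Height is the deposited size of a peak in whole numbers, not scaled to depth or to the amount of mRNA. LIN28A thus held 81.9% of the 386 units of height in the 3 genes. A gene with few bound transcripts in many cells and one with many in few cells cannot be told apart in such data, and the part of mRNA abundance in the counts was not tested.

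Set beside the other protein-coding genes, LIN28A was among those with the most peaks. At least 1 peak was listed for 31.0% of protein-coding genes (6218 of 20056), and the median gene among these had 1 peak and a highest peak of 7. At least as many peaks as in LIN28A were listed for 103 genes, itself included, or 0.514% of all, and more for 86. L1TD1 and its 3 peaks stood with 1706 genes that had at least as many. LIN28B and its 2 peaks stood with 2944, close to the middle of the genes with a peak. By highest peak, LIN28A (36) was reached by 323 genes, or 5.19% of those with a peak. L1TD1 (28) was reached by 410 genes (6.59%) and LIN28B (7) by 3363 (54.1%).

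**Figure D1:**
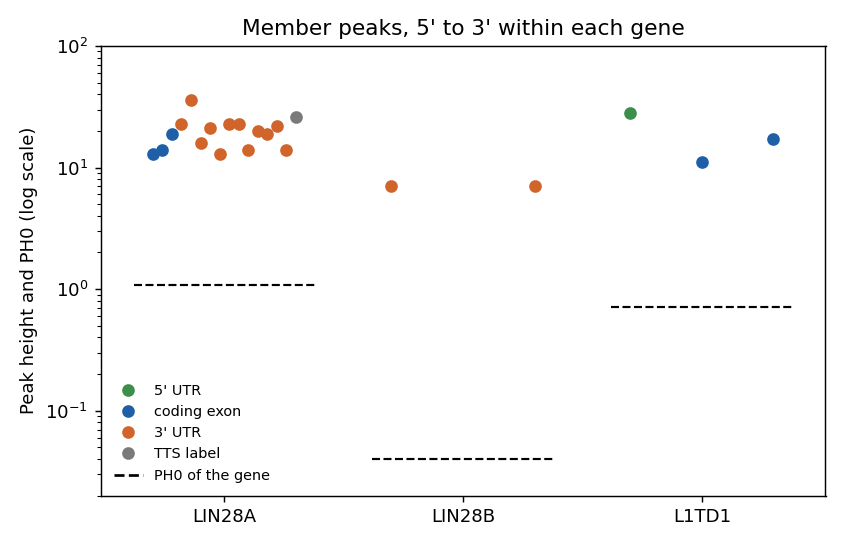
Height of each peak of LIN28A (16), LIN28B (2) and L1TD1 (3), in 5' to 3' order within the gene, on a log axis. Colours give the transcript region, dashed lines the PH0 of the gene. LIN28A peaks run from 13 to 36, L1TD1 peaks from 11 to 28, and both LIN28B peaks stand at 7.

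The peaks of LIN28A lay in exons 2 and 4 of its 4 exons, and none was listed in exon 1, in exon 3 or in an intron. Positions here and below are on hg19, on the plus strand, and the transcript is that named in the authors' annotation. In coding exon 2, a peak of height 13 stood at position 26737960, 691 nt from the annotated start site. A second, of height 14, covered positions 26738021 to 26738043, with its centre 72 nt further on. Both were among the lowest peaks of the gene. The third coding peak, at positions 26752929 to 26752932, had a height of 19 and lay in exon 4. The label changed from coding exon to 3' UTR between that peak and the next one, 144 nt downstream.

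The 3' UTR of LIN28A held 12 of its 16 peaks and 77.2% of its summed height. The first stood at positions 26753074 to 26753075 with a height of 23. The highest peak of the gene, 36, was the next one, a single base at 26753274. No later peak reached that height.

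Peaks of 16, 21 and 13 followed at 26753571, 26753719 and 26753830, 497.5, 646 and 756.5 nt from the centre of the first 3' UTR peak. Peaks of 23, 23, 14 and 20 came at 26754093, 26754229, 26754332 and 26754453, and one of 19 at 26754703. The first 1000 nt after the first 3' UTR peak, that peak included, therefore held 5 peaks with a summed height of 109, and the next 1000 nt held 5 with 99. These stretches were alike in number and in height.

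A stretch without a listed peak came next. Its bases, its repeats and how well reads map to it were not analysed here, so why it held no listed peak was not tested. The centre of the following peak, of height 22 at 26755870, was 1161 nt beyond that of the peak at 26754703. A peak of 14 at positions 26755956 to 26755976 followed 96 nt later. The last peak of the gene, 26 at positions 26756153 to 26756158, was the second highest and carried the label TTS, a stretch around the annotated transcript end. The peaks of exon 4 and the transcript end together spanned 3225 nt from first to last centre.

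**Figure D2:**
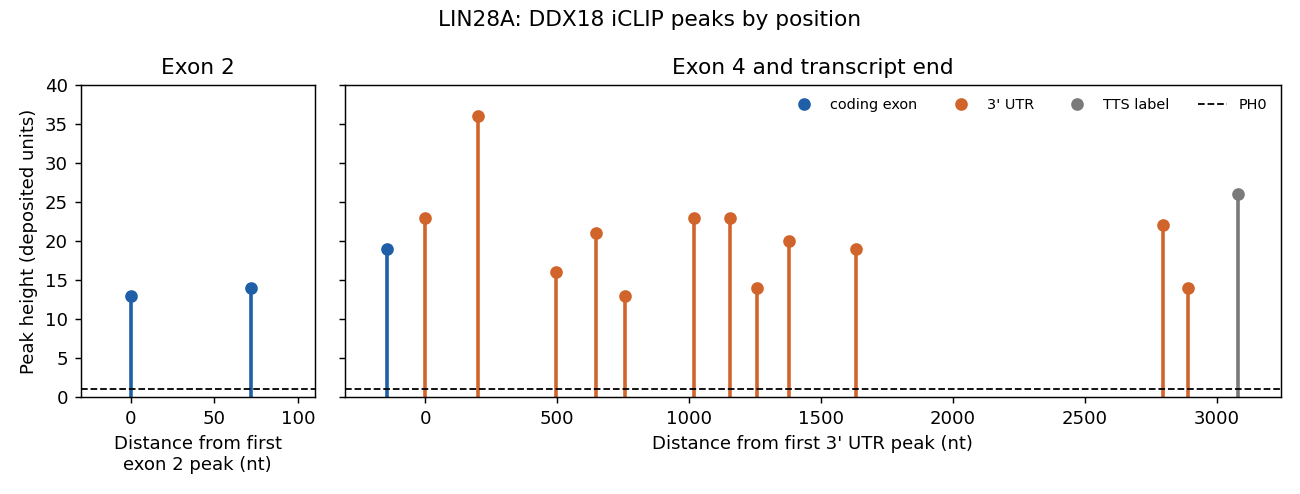
Peaks of LIN28A by position, with exon 2 on the left (distance from its first peak in nt) and exon 4 with the transcript end on the right (distance from the first 3' UTR peak in nt). Stems give the height, colours the region, and the dashed line the PH0 of 1.09. The highest peak, 36, is the second of the 3' UTR, and a stretch of 1161 nt separates the last group of peaks.

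Heights in the 3' UTR ran from 13 to 36 with a median of 20.5, and those of the 3 coding peaks from 13 to 19 with a median of 14. The ranges overlapped, and with 3 coding peaks no order between the regions was read from them. The share of peaks in the 3' UTR was 75% in LIN28A (exact 95% binomial interval 47.6 to 92.7, counting error only, since peaks of 1 mRNA are not independent). Over all peaks called in protein-coding genes it was 18.7% (18.1 to 19.4), with 47.8% in coding exons.

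LIN28A therefore differed from the list as a whole in where its peaks lay. At least 12 peaks in the 3' UTR were listed for 7 protein-coding genes, LIN28A included, or 0.0349% of all. More were listed for 5 genes: PODXL (19), NECTIN1 (17), KIF1A (16), SCD (15) and SLC39A14 (13), while SLC7A5 also had 12. Of the 103 genes with 16 peaks or more, 2, LIN28A included, had at least this share in the 3' UTR, and their median share was 12.5%. The lengths of the 3' UTRs were not analysed here, so counts were not set against length. The counts also rest on the authors' labels. Of the peaks in protein-coding genes, 13.1% carried other labels, TTS among them, and none of these was counted as 3' UTR.

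**Figure D3:**
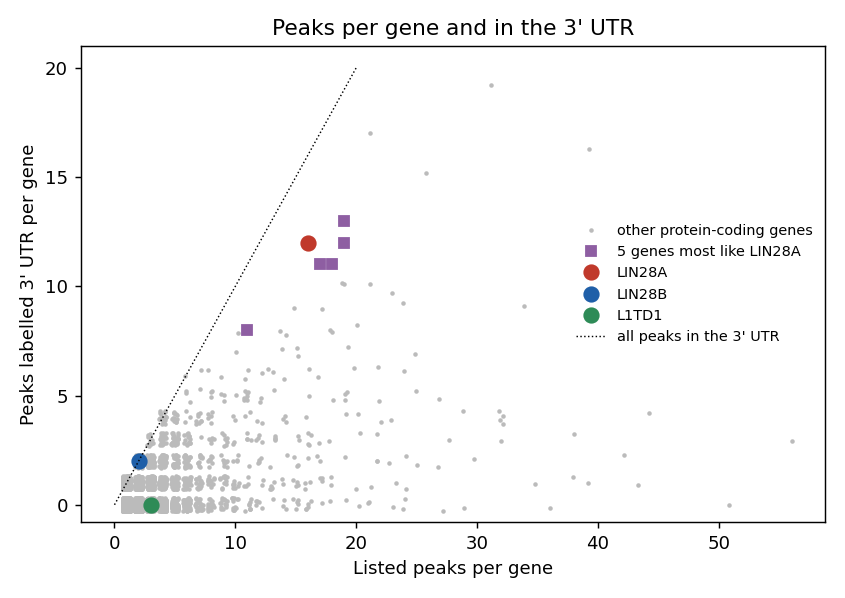
Listed peaks per protein-coding gene (x axis) and those labelled 3' UTR (y axis), with grey points spread slightly for legibility. LIN28A (16 and 12) lies near the dotted line on which every peak is in the 3' UTR, LIN28B (2 and 2) lies on it, and L1TD1 (3 and 0) on the x axis. Squares mark the 5 genes most like LIN28A.

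Neighbouring peaks in the 3' UTR of LIN28A lay at a median of 148.5 nt from centre to centre, from 96 to 1161 nt, and the second largest distance was 298 nt. Over all protein-coding genes, 1192 such distances within 3' UTRs had a median of 267.5 nt (quartiles 163 and 586). Unlike in the shares per region, positions listed under several genes were counted for each gene in these distances. A 3' UTR with 9 peaks or more in 1 exon was found for 17 genes, and the median distance was larger than in LIN28A in 15 of them and smaller in NECTIN1 (122.75 nt). The peaks of LIN28A were thus close together except for 1 stretch. Among the 17 genes, taken for their many 3' UTR peaks, that stretch was exceeded in IGF2BP1 alone (1262 nt), with LARP1 near it (1153.5 nt). Over all protein-coding genes and all exon regions, 165 of 2355 distances (7.01%), that of LIN28A included, were at least 1161 nt. Gaps of this size were thus not particular to LIN28A.

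**Figure D4:**
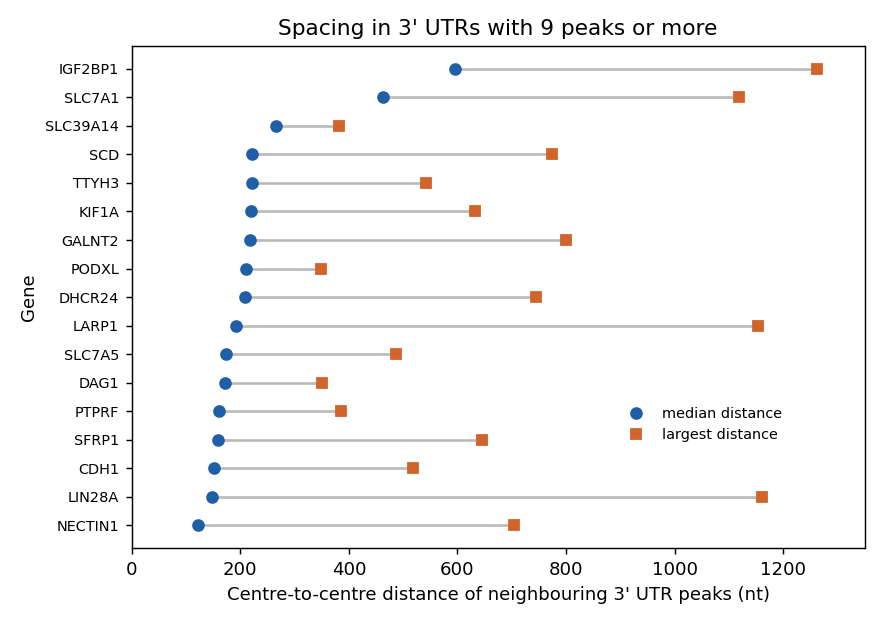
Median (circles) and largest (squares) centre-to-centre distance in nt between neighbouring 3' UTR peaks, for the 17 genes with 9 such peaks or more, ordered by the median. LIN28A combines a short median of 148.5 nt with a largest distance of 1161 nt.

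The genes most like LIN28A in the number of peaks per region (5' UTR, coding exon, 3' UTR, intron and other labels, as the sum of absolute differences) were TTYH3, SLC7A5, SFRP1, SLC39A14 and F11R. TTYH3 and SLC7A5 differed from it by 3 peaks in all. TTYH3 had 4 coding and 11 3' UTR peaks with a highest of 38, and SLC7A5 had 5 and 12 with a highest of 42. SFRP1 differed by 4 peaks, and SLC39A14 and F11R by 5. Their highest peaks were 27, 27 and 20. SLC7A5 encodes an amino acid transporter, SFRP1 a secreted Wnt antagonist, SLC39A14 a metal ion transporter and F11R a junctional adhesion protein.

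LIN28B, the paralogue of LIN28A, had both of its peaks in the 3' UTR, in exon 4 of 4, and none in its coding exons. They covered positions 105526711 to 105526726 and 105526787 to 105526793 of chromosome 6, with centres 71.5 nt apart. Both had a height of 7 and the same deposited p-value, 9.05e-06. The paralogues thus had their peaks mostly or wholly in the 3' UTR, but with 2 peaks in LIN28B the interval for its share starts at 15.8%.

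L1TD1 had no peak in its 3' UTR. Its highest peak, 28, lay in the 5' UTR part of exon 3 of 4, at positions 62672239 to 62672249. A peak of 11 stood 751 nt downstream in the coding part of the same exon, at positions 62672992 to 62672998. The third, of height 17, covered positions 62676003 to 62676020 in coding exon 4. The 5' UTR thus held 1 of 3 peaks (exact 95% binomial interval 0.840 to 90.6%), against 2.31% of the peaks in protein-coding genes. It held 50.0% of the summed height, against 0.799%. Intron peaks, with heights up to 76702, made up 68.9% of the height in protein-coding genes, so these 2 shares of height are not alike in base. All 21 positions in the 3 genes were listed under 1 gene each. Of them, 0 carried a repeat element in the detailed annotation, against 7.36% of all entries in the list. This difference is too small to read from 21 positions, and these labels describe peaks, not the stretches between them.

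The list also gives a value named PH0, which was the same for every peak of a gene, and neither its meaning nor its formula is given in the sources used here. It was 1.09 in LIN28A, 0.71 in L1TD1 and 0.04 in LIN28B, against a median of 0.05 in protein-coding genes with a peak. LIN28A and L1TD1 were among the 3.14% and 4.92% of these genes with a PH0 at least that large, and LIN28B was near the middle (59.1%). Genomic gene length in the RefSeq table was 18912 nt for LIN28A, 17480 nt for L1TD1 and 146307 nt for LIN28B.

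Peak heights exceeded PH0 by 11.9 to 33.0 times in LIN28A and by 15.5 to 39.4 times in L1TD1. In LIN28B both peaks stood at 175 times PH0, and because 0.04 is a rounded value the ratio could lie between 156 and 200. The order of the 3 genes by this ratio was the reverse of their order by highest peak. The median ratio of the highest peak over the 5760 protein-coding genes with a PH0 above 0 was 150, and 93.3% of them had a ratio at least as large as LIN28A. A high peak in LIN28A thus went with a high PH0.

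The lowest listed peak of a gene rose with its PH0. Across 6218 protein-coding genes Spearman's rho was 0.78, given as a description, since both values come from the same libraries and genes are not independent replicates. In 27 genes with a PH0 within 10% of that of LIN28A, itself included, the lowest listed peak was at least 12, and it was 13 in LIN28A. It was at least 10 in the 72 such genes around L1TD1 (11 in L1TD1) and at least 5 in the 531 around LIN28B (7 in LIN28B). A peak of 7, as in LIN28B, was thus below every listed peak of genes with a PH0 like that of LIN28A.

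**Figure D5:**
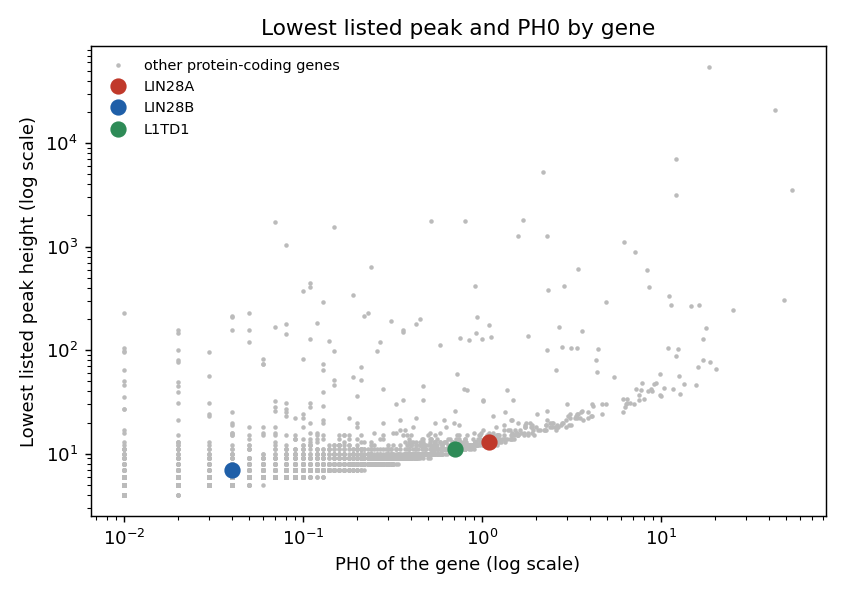
PH0 (x axis) and lowest listed peak height (y axis) of each protein-coding gene with a PH0 above 0, both on log axes. LIN28A (1.09 and 13), L1TD1 (0.71 and 11) and LIN28B (0.04 and 7) are marked, and the lower edge of the points rises with PH0. LIN28A and L1TD1 lie near that edge, and LIN28B above the median of 6 in genes of like PH0.

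Among the 27 genes of like PH0, 2 had 16 peaks or more, LIN28A included, and the median was 2 peaks. Their median highest peak was 31, and 12 of them reached the 36 of LIN28A. Most of these genes thus had fewer peaks than LIN28A, while its highest peak lay within their range.

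Genes that work with LIN28 were described from lists of the let-7 pathway. Of 11 genes of let-7 maturation, 8 had a peak, against 31.0% of protein-coding genes, a background that includes genes these cells may not express. The median of their highest peaks was 7.5, near the 7 of all protein-coding genes with a peak. The 4 highest were 18 in RAN, the GTPase of nuclear export, 9 in XPO5, which exports the precursors, 9 in DGCR8 and 8 in DROSHA, the partners that cut the primary transcript. Of 4 genes listed under LIN28-directed decay, DIS3L2, the exonuclease that degrades tailed precursors, had 1 peak of 6. ZCCHC3 had 1 of 11, but a part of this gene in the decay was not established from the sources used here. No peak was listed for TUT4 or TUT7, which add the uridine tail. Of 8 other let-7 regulators, 7 had a peak, among them HNRNPA1 (highest peak 60), TRIM71 (30) and KHSRP (14).

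Among 20 let-7 target genes, 17 had a peak (85.0%), again beside 31.0% of all protein-coding genes. IGF2BP1, which encodes an oncofetal RNA-binding protein, had 15 with 9 in the 3' UTR and a highest of 19. IGF1R and INSR, receptors for insulin-like growth factor and insulin, had 11 and 9, with 3 in the 3' UTR each. TRIM71, a ubiquitin ligase of stem cells that is also in the regulator list, had 9, of which 6 were in coding exons. HMGA1, a chromatin protein, had 10 with a highest of 56, and 7 of them carried a start or end label. The target genes together had 37.5% of their 80 peaks in the 3' UTR, between the 18.7% of all protein-coding genes and the 75% of LIN28A. IGF2BP1 alone held 9 of these 30 peaks. In the pluripotency markers described below the share was 40.3% of 72 peaks, with 19 of the 29 in PODXL. It was 23.2% of 56 peaks in the RNA-binding genes that follow. The share was therefore not read as a trait of let-7 targets, and 3' UTR lengths were not analysed. Of 18 further RNA-binding genes of stem cells, 13 had a peak (72.2%, beside the same 31.0%), among them CNBP (highest peak 24), PCBP2 (13) and YBX3 (12). QKI and KHDRBS1 had 7 peaks each, RBFOX2, CELF1 and RBPMS had 6 each, and RBM47 had 5.

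The median height over all positions of the list was 8 (range 3 to 76702). Of 18 markers of pluripotent cells, 14 had a peak, with 31 in PODXL and 16 in DNMT3B, but none was listed for POU5F1 or SOX2. Of 15 fibroblast and feeder markers 7 had one (46.7%, interval 21.3 to 73.4, beside 31.0% of all protein-coding genes), with summed heights per gene from 6 to 141. THY1 had 3 peaks with a highest of 39, COL6A1 10 with a highest of 26, FN1 10 with 13, and COL1A2 8 with 16. No peak was listed for the other 8, COL3A1, VIM, LUM, DCN, S100A4, POSTN, ACTA2 and TAGLN. Whether H9 cells express these fibroblast and feeder markers was not analysed here, and the feeders were mouse cells while positions are on hg19. Peaks in these genes were therefore not read as feeder RNA. The part of feeder RNA in the peaks of LIN28A, LIN28B and L1TD1 was not tested.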

How the data were processed

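Peaks of 3XFlag-DDX18 iCLIP from 2 samples were read from 1 deposited list. The deposited signal per peak is its height, in whole numbers whose scaling is not stated. The peak's name repeats that height and adds the called gene, PH0 and the authors' p-value. Per the file headers, peaks were annotated with annotatePeaks.pl on hg19. The submitters' processing notes name FastQC 0.10.1 and BWA. For the peak caller and for pooling of samples, the method was not given in the sources used here, and depth per sample is unknown.

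Peaks were assigned by the Entrez identifier in the peak name. Identifiers of 6677 of 6695 genes matched the RefSeq table (GRCh38.p14), used for names, gene types and gene lengths only. Regions are the authors' labels. Distances were taken between peak centres within 1 exon of 1 transcript. Intervals are Clopper-Pearson. Genes outside the members were named by fixed rules: the 5 most like a member with 5 peaks or more, and from each list the 4 highest and those with 5 peaks or more. Some list genes that meet the rule are not reported here. Some genes were named after their values were seen: those with as many 3' UTR peaks as LIN28A, those with its spacing or gaps, and list genes without a peak. The members and lists were chosen with earlier results of these data known. Functions were tested on simulated lists. Python 3.11.15, pandas 2.3.3 and scipy 1.17.1 were used.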

Additional observations from a re-analysis of the deposited data

How the results depend on the processing

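A result counted as unchanged when a count, height or distance stayed within 1.5 times, or a share within its interval. When peaks were assigned by nearest start site instead of by called gene, LIN28A had 2 peaks, a summed height of 27, a highest of 14 and 0% in the 3' UTR, LIN28B had 0 peaks and a summed height of 0, and the other let-7 regulators had 4 genes with a peak. This follows from the annotation: 14 LIN28A peaks lay nearer to the start of DHDDS and both LIN28B peaks nearer to that of BVES. The 3 L1TD1 peaks kept their gene. With heights of at least 8, and with heights of at least 13 (the lowest of LIN28A, so that LIN28A could not lose a peak, chosen after seeing the data), LIN28B had 0 peaks and a summed height of 0. At 13 the genes with a peak fell to 1 for let-7 maturation, 0 for LIN28-directed decay, 4 for other regulators, 6 for let-7 targets and 3 for further RNA-binding genes. With deposited p-values up to 0.01, LIN28-directed decay had 1 gene, and the other 15 results counted as unchanged. Within that limit LIN28A fell to 14 peaks and L1TD1 to 2, with a summed height of 45 in L1TD1. The genes with a peak fell to 6 for let-7 maturation, 15 for let-7 targets and 12 for further RNA-binding genes. Joining peaks 10 nt or less apart was run on 11 results of the 3 genes and could change none, since their neighbouring peaks all lay further apart. Edge-to-edge distances and shares of height left the results they were run on unchanged. No replicate could be left out, since the list holds no value per replicate. No paired analysis was possible because there is 1 group.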

Other observations

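The peaks of LIN28A were narrow. Their median width was 3 nt (range 1 to 23), and 5 of 16 were a single base, against a median of 13 nt and 8% of all positions. In the 27 genes of like PH0 the median was 5 nt, and 21.4% of the peaks were a single base. The LIN28B peaks were 16 and 7 nt wide, where 531 genes of like PH0 had a median of 18 nt. The L1TD1 peaks, by contrast, were wider than in genes of like PH0: 7 to 18 nt with a median of 11 nt, against 5 nt in 72 such genes.

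Within a gene the deposited p-value depended on the height alone: 0 of 12534 pairs of gene and height had more than 1 p-value. Its scale differed between genes. In LIN28A the 8 peaks of height 20 and above stood at the lower limit of 1e-100, while the L1TD1 peaks of 28 and 17 had 8.36e-10 and 8.37e-10. These p-values therefore do not rank peaks of different genes.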
